A study of Saccharomyces cerevisiae with 6 samples.

Results

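The proteasome is the particle that degrades proteins tagged with ubiquitin, and its subunit genes and their activator gene RPN4 were followed in budding yeast that lacked PUN1. The 33 genes were chosen by name, 32 for the subunits and 1 for RPN4, of 5449 Saccharomyces cerevisiae genes tested. All 33 were found, each with 1 probe set of the 5498 tested. By structure, the subunit genes fell into 14 of the core particle, 10 of the base and 8 of the lid, whose small subunit Sem1 was not on the list. The deletion strain, described as diploid and homozygous for loss of PUN1 in the filamentous Σ1278b background, gave 3 arrays. A wild-type diploid of the same background gave the other 3. Both strains were first grown in rich YPD medium with 2% glucose at 30 °C to an OD600 of 0.6. They were then washed and kept for 6 h in SLAD, a medium low in nitrogen, and each array carried RNA of a separate biological replicate.

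In the assembled proteasome, the core particle is a barrel of stacked alpha and beta rings whose proteolytic sites face an inner chamber. The regulatory particle caps the barrel: its base unfolds substrates with a ring of ATPases, and its lid removes the ubiquitin chain. Rpn4 is a short-lived transcription factor that activates the subunit genes together and is itself a substrate of the proteasome, which forms a feedback loop. In cells short of nitrogen, proteasomes and vacuolar proteolysis both return amino acids to the cell.

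None of the 33 genes differed between the strains by more than the test could tell from the spread between replicates. At an adjusted p under 0.05 in limma, 0 of 33 were higher in the deletion strain and 0 of 33 were lower. Over all tested probe sets, 15.8% were called higher and 9.82% lower, 25.6% in all. At an unadjusted p under 0.05, 1 of the 33 genes was reached, RPN6, against 39% of all tested probe sets. The median log2 difference, deletion minus wild type, was -0.015 over the 32 subunits and 0.018 over all tested probe sets. It was 0.0016 over the 1030 tested probe sets within the signal range of the 33 genes. The subunit median was -0.030 without wild type replicate 1 and -0.0027 without wild type replicate 3. The 32 subunit differences ran from -0.15 to 0.056, and the median of their sizes was 0.028, against 0.11 over all tested probe sets. Within that signal range the median size was 0.085, and 36.5% reached an unadjusted p under 0.05 in limma.

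A missed threshold does not show that levels were equal, but the intervals limit the sizes. The 95% intervals of the 32 subunit differences reached at most from -0.28 to 0.15, that is a change of -17.8% to 10.9%. For 31 of the 32 subunits the whole interval lay within 0.25 log2 units of 0, and RPN6 was the exception. Only 1 of the 32 differed by over 0.1, while 52.9% of all tested probe sets and 42.5% of those within the signal range did. Among all tested probe sets, 38.2% had a difference larger in size than that of RPN6, the largest among the subunits.

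The subunit genes gave bright signals, with means from 12.12 to 13.90 over the 6 arrays, and all 33 genes were above background on every array. Differences were called at that brightness for other genes. Of the 1030 tested probe sets within the same signal range, 23% were called, and 27.6% had a difference larger than that of RPN6. The residual SD between replicates had a median of 0.027 over the subunits, against 0.051 in that range and 0.071 over all tested probe sets. The array is relative, so a change shared by most transcripts would not be seen, and fewer expressing cells cannot be told apart from less RNA per cell.

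**Figure D1:**
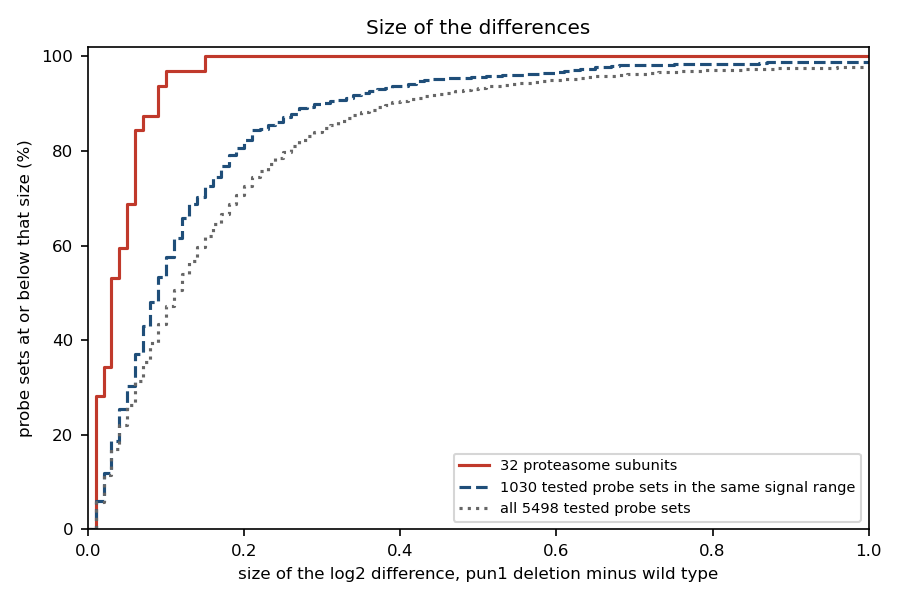
The horizontal axis gives the size of the log2 difference between deletion and wild type, and the vertical axis the percentage of probe sets at or below that size. The line of the 32 subunits reaches 100% at 0.15, while 38.2% of all 5498 tested probe sets and 27.6% of the 1030 in the same signal range lie beyond the largest subunit difference.

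Array facts that bear on the comparison were as follows. PUN1 read 8.33, 4.83 and 4.93 (log2) on deletion replicates 1, 2 and 3, against 13.35, 13.50 and 13.55 on wild-type replicates 1, 2 and 3, so deletion replicate 1 alone stood above its background of 5.68. The strains also differed in mating-type genes, although both are described as diploid. HMRA1, needed for the repressor of haploid genes in a/alpha diploids, was below background on all 3 deletion arrays and at 8.82 to 9.42 in wild type. All 6 haploid-specific genes and all 5 alpha-cell genes of the marker lists were higher in the deletion strain, by 3.20 to 7.93. No gene of the a-cell list passed (0 of 5 in limma, 2 at an unadjusted p under 0.05). Loss of PUN1 and this difference in cell type cannot be told apart in any result here. A control for 25S ribosomal RNA read 9.07, 11.3 and 12.5 on deletion replicates 1, 2 and 3 and 12.8, 9.06 and 8.85 on wild-type replicates 1, 2 and 3. An alternative fit leaves out the 3 arrays above 10 on this control. That fit compares deletion replicate 1 alone with wild-type replicates 2 and 3, so it has no spread between deletion arrays.

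RPN4 (YDL020C), the gene of the activator, read 12.20, 12.39 and 12.25 on deletion replicates 1, 2 and 3, against 12.18, 12.28 and 12.27 on wild-type replicates 1, 2 and 3. Deletion replicate 2 held the highest value, and the other 5 arrays of both groups interleaved. The limma difference was 0.037 (SE 0.061, 95% interval -0.11 to 0.18, adjusted p = 0.695, n = 3 per group). Without deletion replicate 2 the difference was -0.018 (adjusted p = 0.872), so its sign rested on that array. The upper end of the interval corresponds to a level 13.4% higher. The transcript says nothing of the amount of Rpn4 protein, which is set largely by its degradation.

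Across the 6 arrays the subunit genes most similar to RPN4 were PRE5, PRE9 and RPN13, with Pearson correlations of array values of 0.71, 0.67 and 0.65. They are descriptions over 6 arrays, whose values were made together by the authors. Of the 32 subunits, 20 had a correlation above 0 with RPN4, and the lowest was that of PRE8, at -0.89. Among the 496 pairs of subunits the median correlation was 0.091, and 54.6% of the pairs were above 0. No such correlations are given for other probe sets, so these values have no reference here.

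The alpha ring of the core particle gates entry into the barrel. Of its 7 genes, 4 had a difference above 0 and 3 below, with a median of 0.0014. PRE5 had the largest of these differences. It read 13.43, 13.46 and 13.43 on deletion replicates 1, 2 and 3, against 13.34, 13.39 and 13.42 on wild-type replicates 1, 2 and 3. The groups did not overlap, by a margin smaller than the spread among the wild-type arrays, and the difference of 0.055 did not pass (SE 0.039, adjusted p = 0.344 in limma). PRE6 lay at the other end. Its values were 13.90, 13.87 and 13.85 on deletion replicates 1, 2 and 3 and 13.95, 13.93 and 13.90 on wild-type replicates 1, 2 and 3. The groups met at their edges, and the difference was -0.054 (SE 0.038, adjusted p = 0.33).

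The remaining alpha-ring genes lay closer to 0. PRE9, the gene of the only alpha subunit that yeast can live without, differed by 0.029 with deletion replicates spread from 13.30 to 13.39. SCL1 differed by -0.0056, PRE8 by -0.0032, PRE10 by 0.0014 and PUP2 by 0.0016. PUP2 averaged 13.67 ± 0.0066 on the deletion arrays and 13.66 ± 0.0071 on the wild-type arrays (SD, n = 3 each). For these 4 genes the intervals reached no further than -0.099 to 0.088.

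The beta ring carries the 3 catalytic subunits, encoded by PRE3 (caspase-like site), PUP1 (trypsin-like site) and PRE2 (chymotrypsin-like site). PUP1 had the largest difference of the whole core particle. It read 13.51, 13.53 and 13.48 on deletion replicates 1, 2 and 3, against 13.46, 13.47 and 13.43 on wild-type replicates 1, 2 and 3. All 3 deletion values lay above the wild-type values, and the difference of 0.056 did not pass (SE 0.037, adjusted p = 0.306). PRE2 differed by -0.0068, and PRE3 by 0.0032. The groups overlapped for both PRE2 and PRE3.

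Among the beta subunits without a proteolytic site, PRE7 differed by 0.020. PRE1, PRE4 and PUP3 were each lower on all 3 deletion arrays than on any wild-type array. PRE1 differed by -0.053, with 13.42, 13.39 and 13.43 in the deletion strain and 13.43, 13.48 and 13.49 in wild type. PUP3 differed by -0.047, with 13.71, 13.71 and 13.72 in the deletion strain and 13.74, 13.77 and 13.78 in wild type. PRE4 differed by -0.046. None of the 3 passed, at adjusted p-values of 0.35, 0.369 and 0.402 for PRE1, PUP3 and PRE4 in limma. The median over the beta ring was -0.0068, and that over all 14 core genes was -0.00091. The sign of the core median was not stable: it was 0.0015 without deletion replicate 3, 0.0030 without wild type replicate 1 and 0.00060 without wild type replicate 2, and -0.0030 without wild type replicate 3.

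**Figure D2:**
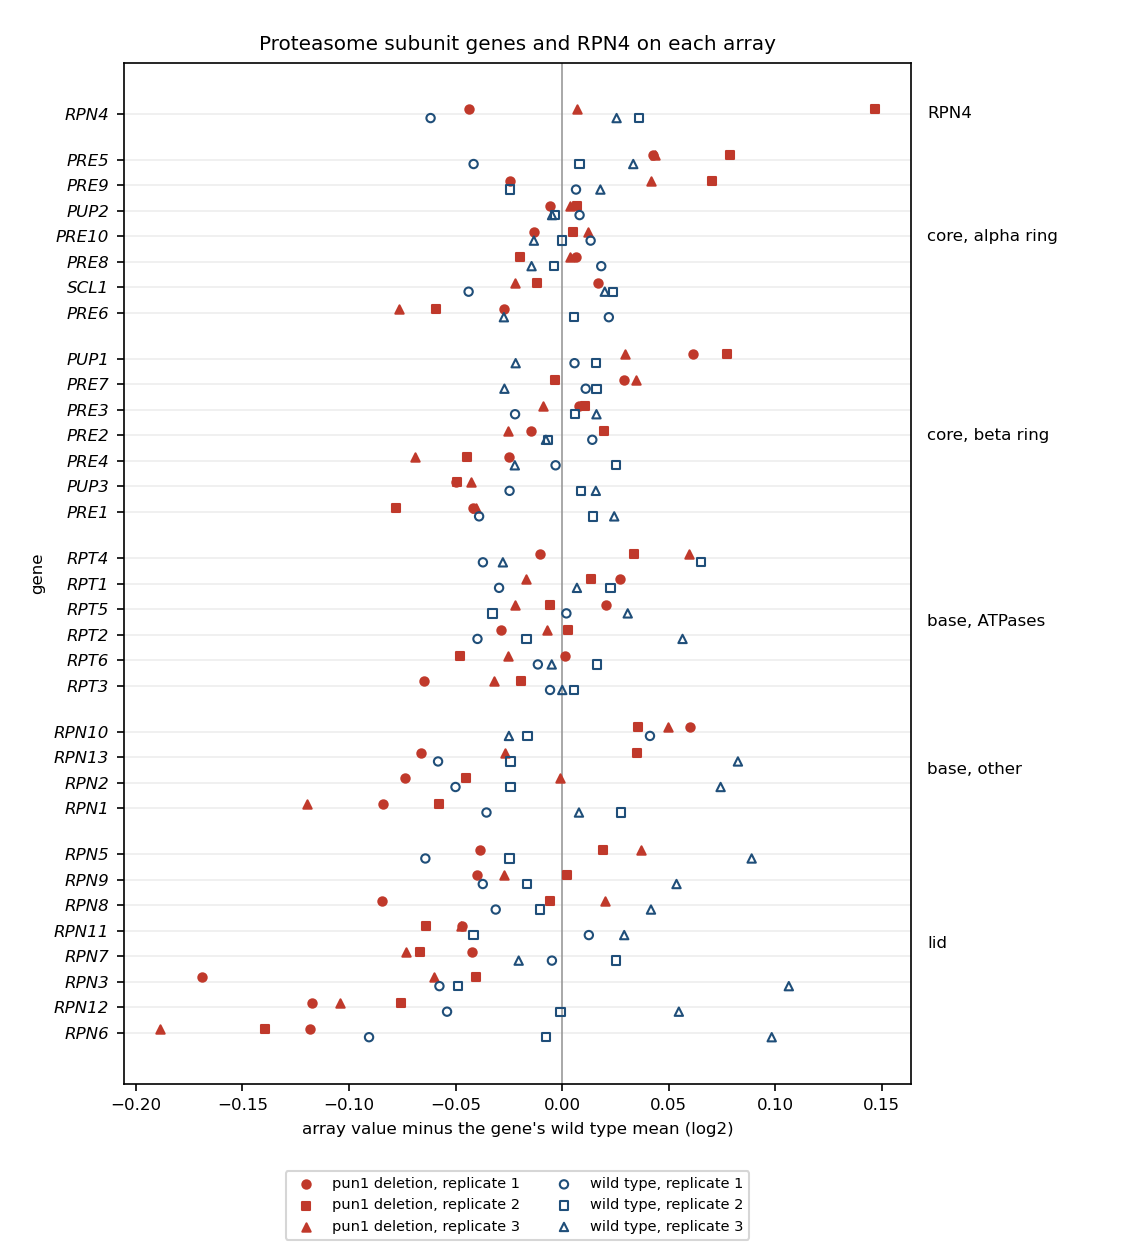
Each point is 1 array, placed by its log2 value minus the mean of the 3 wild-type arrays for that gene; filled red points are deletion arrays and open blue points wild-type arrays, with a shape per replicate number. Wild type replicate 3 (open triangles) sits at the right end for 7 of the 8 lid genes, 4 of the 10 base genes and 3 of the 14 core genes.

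The base holds the ATPase ring, whose 6 genes RPT1 to RPT6 encode the motor that unfolds substrates. RPT4 had the largest difference at 0.028 and RPT3 the lowest at -0.039. RPT3 read 13.28, 13.33 and 13.31 on deletion replicates 1, 2 and 3, against 13.34, 13.35 and 13.35 on wild-type replicates 1, 2 and 3. Its groups did not overlap, and it did not pass (SE 0.036, adjusted p = 0.469). RPT1 differed by 0.0079, RPT2 by -0.011, RPT5 by -0.0023 and RPT6 by -0.024, each with overlapping groups. The median over the 6 ATPase genes was -0.0066.

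The other base genes encode the scaffolds Rpn1 and Rpn2 and the ubiquitin receptors Rpn10 and Rpn13. RPN1 (YHR027C), whose product binds ubiquitin-like shuttle factors, had the lowest difference of the base. It read 13.35, 13.38 and 13.32 on deletion replicates 1, 2 and 3 and 13.40, 13.47 and 13.45 on wild-type replicates 1, 2 and 3. Every deletion value lay below every wild-type value, and the difference was -0.087 (SE 0.040, 95% interval -0.18 to 0.0073, adjusted p = 0.155). RPN10 stood at the upper end with 13.52, 13.49 and 13.51 on deletion replicates 1, 2 and 3, against 13.50, 13.44 and 13.43 on wild-type replicates 1, 2 and 3. Wild type replicate 1 reached into the deletion values, and the difference was 0.048 (SE 0.038, adjusted p = 0.392). RPN2 differed by -0.040 and RPN13 by -0.019, both with overlapping groups. The median of the 10 base genes was -0.015, and without wild type replicate 3 it was 0.012.

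The lid encloses Rpn11, the enzyme that cuts the ubiquitin chain from a substrate as it enters, together with scaffold subunits and the small subunit Sem1. SEM1 was not among the 33 genes and was counted with the associated genes; it differed by 0.037 with overlapping groups (adjusted p = 0.819). Of the 8 lid genes among the 33, 7 had a difference below 0, with a median of -0.057. Over all tested probe sets 45.2% were below 0 with a median of 0.018. Within the signal range of the 33 genes, 49.5% were below 0 with a median of 0.0016. RPN6 (YDL097C), whose product clamps the lid to the core particle, had the lowest difference of the 33 genes. It read 12.08, 12.06 and 12.01 on deletion replicates 1, 2 and 3, against 12.11, 12.19 and 12.29 on wild-type replicates 1, 2 and 3. The deletion values were close together and all below the wild-type values, which ranged more widely. The difference was -0.15 (SE 0.057, 95% interval -0.28 to -0.014, unadjusted p = 0.0348, adjusted p = 0.099 in limma). It passed when wild type replicate 1 was left out, at -0.19 (adjusted p = 0.0449), and was -0.10 without wild type replicate 3 (adjusted p = 0.212).

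RPN12, which encodes the subunit added last in lid assembly, read 12.58, 12.62 and 12.60 on deletion replicates 1, 2 and 3 and 12.65, 12.70 and 12.75 on wild-type replicates 1, 2 and 3. The groups were apart, with a difference of -0.099 that did not pass (SE 0.043, adjusted p = 0.138). RPN3 had a similar difference of -0.090 with overlap, and its lowest value, 12.48, was that of deletion replicate 1. RPN7 differed by -0.061 and RPN11 by -0.053, both with groups that did not overlap and adjusted p-values of 0.266 and 0.35. RPN8, which encodes the partner of Rpn11, differed by -0.023 and RPN9 by -0.022. RPN5 was the 1 lid gene of the list above 0, at 0.0059, and its sign reversed in 6 of 12 alternatives. It read 12.99, 13.05 and 13.07 on deletion replicates 1, 2 and 3, against 12.96, 13.00 and 13.12 on wild-type replicates 1, 2 and 3, and its groups interleaved.

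The lid genes stood high together on 1 wild-type array. For 7 of the 8 lid genes the highest of the 6 values was on wild type replicate 3, against 16.7% of all tested probe sets. The same array was highest for 4 of the 10 base genes (40%) and 3 of the 14 core genes (21.4%). Relative to each gene's wild-type mean, the lid median was -0.066, -0.052 and -0.054 on deletion replicates 1, 2 and 3 and -0.046, -0.013 and 0.054 on wild-type replicates 1, 2 and 3. The deletion arrays were alike, and wild type replicate 1 lay near them. Over the 28 pairs of lid genes the median correlation across the 6 arrays was 0.65, while it was -0.093 over the 91 pairs of core genes and 0.053 over the 45 pairs of base genes. These are descriptions over 6 arrays of both strains, so the strain difference and wild type replicate 3 both enter them. No such correlations are given for other probe sets of the same brightness. Without wild type replicate 3 the lid median was -0.037.

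Of all 33 genes, 2 had every deletion value above every wild-type value, PRE5 and PUP1, against 26.7% of all tested probe sets. The opposite order was found for 18.1% of all tested probe sets. Within the signal range of the 33 genes it was found for 243 of 1030 (23.6%), and the first order for 257. Among the 33 genes, 9 had the opposite order (27.3%), a share nearer to that of the same signal range. These were PRE1, PRE4 and PUP3 of the core, RPT3 and RPN1 of the base, and RPN6, RPN7, RPN11 and RPN12 of the lid. None of the 11 passed the test.

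**Figure D3:**
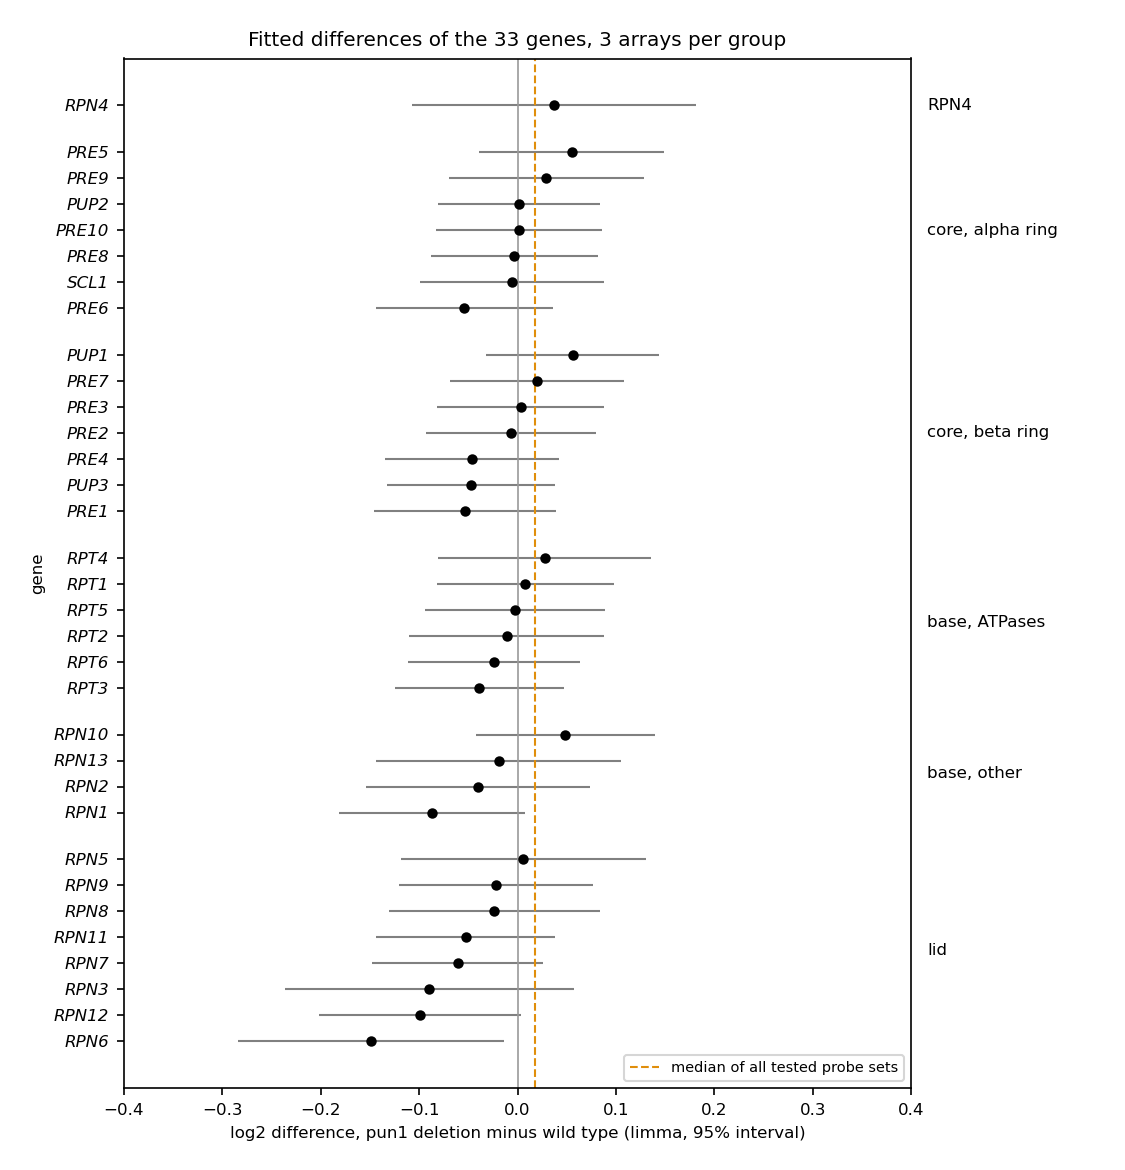
Points are the limma log2 differences, deletion minus wild type, of the 33 genes with 95% intervals from 3 arrays per group, ordered within each part of the particle. The dashed line is the median of all tested probe sets, 0.018; all intervals except that of RPN6 cross 0.

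Genes whose products assemble or attend the particle were examined beside the subunits. Of 18 measured genes, 3 were higher in the deletion strain and 2 lower, and 13 did not pass, with a median difference of 0.017. The 5 are 27.8% of the list, near the 25.6% called over all tested probe sets. TMA17 (also ADC17), a stress-induced chaperone that helps the ATPases pair, fell most. It read 11.48, 11.50 and 11.41 on deletion replicates 1, 2 and 3, against 11.90, 11.88 and 11.97 on wild-type replicates 1, 2 and 3. The groups stood well apart, with a difference of -0.45 (SE 0.046, 95% interval -0.56 to -0.34, adjusted p = 0.000875 in limma), and it passed under all 12 alternative settings.

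FUB1, which encodes a proteasome-binding protein related to the inhibitor PI31 of animals, was higher. It read 10.97, 10.97 and 11.15 on deletion replicates 1, 2 and 3 and 10.77, 10.73 and 10.66 on wild-type replicates 1, 2 and 3, with groups apart. The difference was 0.31 (SE 0.064, adjusted p = 0.014 in limma), and it passed in every alternative that kept more than 1 deletion array. Without the 3 arrays of high 25S signal, which left deletion replicate 1 alone, the FUB1 difference was 0.27. POC4, for a chaperone of the alpha ring, was 0.28 higher (SE 0.070, adjusted p = 0.0277). It read 11.78, 11.90 and 11.98 in the deletion strain and 11.55, 11.71 and 11.56 in wild type. STS1, needed to place proteasomes in the nucleus, was 0.23 higher (SE 0.050, adjusted p = 0.0178), with 11.50, 11.53 and 11.54 in the deletion strain and 11.38, 11.29 and 11.22 in wild type.

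ADD66, for another chaperone of alpha-ring assembly, fell by 0.18 on the log2 scale (SE 0.053, adjusted p = 0.0485). It is the remaining gene that passed and was chosen after its value was seen. Its call in limma was lost when any single array was left out (adjusted p = 0.0573 to 0.121). POC4 lost its call without deletion replicate 2 or 3 or wild type replicate 1 or 3 (adjusted p = 0.0645 to 0.0907). STS1 lost its call without deletion replicate 2 or 3 or wild type replicate 2 (adjusted p = 0.0586 to 0.0691). Without the 3 arrays of high 25S signal, with deletion replicate 1 alone, ADD66, POC4 and STS1 differed by -0.27, 0.14 and 0.25. The number of the 18 that passed was 2 without deletion replicate 2 or 3 and 3 without any 1 wild-type array. The share called over all tested probe sets was also lower in these fits. It was 14.4% and 15.6% without deletion replicates 2 and 3, and 24.1%, 17.0% and 18.4% without wild-type replicates 1, 2 and 3. The haploid-specific genes were higher on the same deletion arrays, by 3.20 to 6.33 (6 of 6 genes), and their part in these results and those of the lists that follow was not tested.

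Of 30 genes chosen for the ubiquitin pathway, 3 fell, 0 rose and 27 did not pass in limma, with a median difference of -0.0094. At an unadjusted p under 0.05, 7 were lower and 1 higher, UBC5, for a ubiquitin-conjugating enzyme, at 0.28 (adjusted p = 0.0515). SSM4 (also DOA10), 1 of the lower genes, was nearer the threshold, at -0.14 (adjusted p = 0.0504 in limma). It passed in some alternatives, among them median centring, quantile normalization and the fit without deletion replicate 1. The called share of the 30 genes was 10%, against 25.6% of all tested probe sets. Their share at an unadjusted p under 0.05 was 26.7%, against 39%. HRD1, the ubiquitin ligase in the membrane of the endoplasmic reticulum that marks misfolded proteins, fell most. It read 10.48, 10.49 and 10.59 on deletion replicates 1, 2 and 3, against 10.87, 10.95 and 10.82 on wild-type replicates 1, 2 and 3. Its groups were apart, with a difference of -0.36 (SE 0.053, adjusted p = 0.00377), and it passed in all 12 alternatives. SAN1, the ligase for misfolded proteins in the nucleus, fell by 0.24 on the log2 scale (SE 0.049, adjusted p = 0.015). It read 10.96, 10.99 and 10.91 in the deletion strain and 11.13, 11.26 and 11.18 in wild type, and among fits without 1 array its call was lost without deletion replicate 3 (adjusted p = 0.0584).

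UBP2, a deubiquitinating enzyme, fell by 0.22 on the log2 scale (SE 0.061, adjusted p = 0.0413), with 11.35, 11.38 and 11.44 in the deletion strain and 11.50, 11.61 and 11.71 in wild type. Its call was kept only without wild type replicate 1 when single arrays were left out, and the lost calls had adjusted p = 0.0797 to 0.123. The genes of ubiquitin itself, UBI4, RPL40A, RPL40B and RPS31, differed by 0.10, 0.033, 0.020 and 0.047, and none of the 4 passed, and signal shared among their near-identical ubiquitin repeats is uncertain. CDC48, the segregase that delivers substrates, differed by -0.024 and the shuttle gene RAD23 by -0.015. With the replicate number as a block, UBC5 passed as higher and 4 genes as lower. The count that passed was 1 without deletion replicate 3 and 5 without deletion replicate 1. The share called over all tested probe sets was 28.4% with the block, 15.6% without deletion replicate 3 and 25.9% without deletion replicate 1.

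The regulators of Rpn4 formed a list of 7, of which 1 was higher, 1 lower and 5 did not pass. The called share of 28.6% was near the 25.6% of all tested probe sets. HSF1, the heat shock factor that can activate RPN4, fell by 0.35 on the log2 scale (SE 0.084, adjusted p = 0.0253). It read 10.39, 10.22 and 10.46 on deletion replicates 1, 2 and 3 and 10.59, 10.83 and 10.69 on wild-type replicates 1, 2 and 3. Its call was lost without deletion replicate 2 or wild type replicate 2 or 3 (adjusted p = 0.0673 to 0.0746). PDR3, a drug resistance activator that also acts on RPN4, was 0.32 higher (SE 0.090, adjusted p = 0.0425). It read 10.09, 9.99 and 9.86 in the deletion strain and 9.64, 9.82 and 9.52 in wild type. In fits that left out 1 array, the call was kept only without wild type replicate 2, and the lost calls had adjusted p = 0.0507 to 0.121.

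PDR1, the paralog of PDR3, and YAP1, the activator of the oxidative stress response, differed by 0.072 and -0.037. UBR2, MUB1 and RAD6, also counted in the ubiquitin list, encode the enzyme complex that ubiquitylates Rpn4. UBR2 differed by -0.24 (adjusted p = 0.0799) with overlapping groups, MUB1 by 0.042 and RAD6 by 0.032, and none passed. Beside these the RPN4 transcript differed by 0.037 and the median subunit by -0.015. With the replicate number as a block UBR2 passed, which made 3 of the 7 regulators. No regulator passed in limma without deletion replicate 2 or without wild type replicate 3 (0 of 7), and 1 passed without deletion replicate 3, wild type replicate 1 or wild type replicate 2. Over all tested probe sets, 28.4% were called with the block. That share was 14.4% and 15.6% without deletion replicates 2 and 3, and 24.1%, 17.0% and 18.4% without wild-type replicates 1, 2 and 3. With all arrays, 3 of the 7 (42.9%) reached an unadjusted p under 0.05, against 39% of all tested probe sets.

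**Figure D4:**
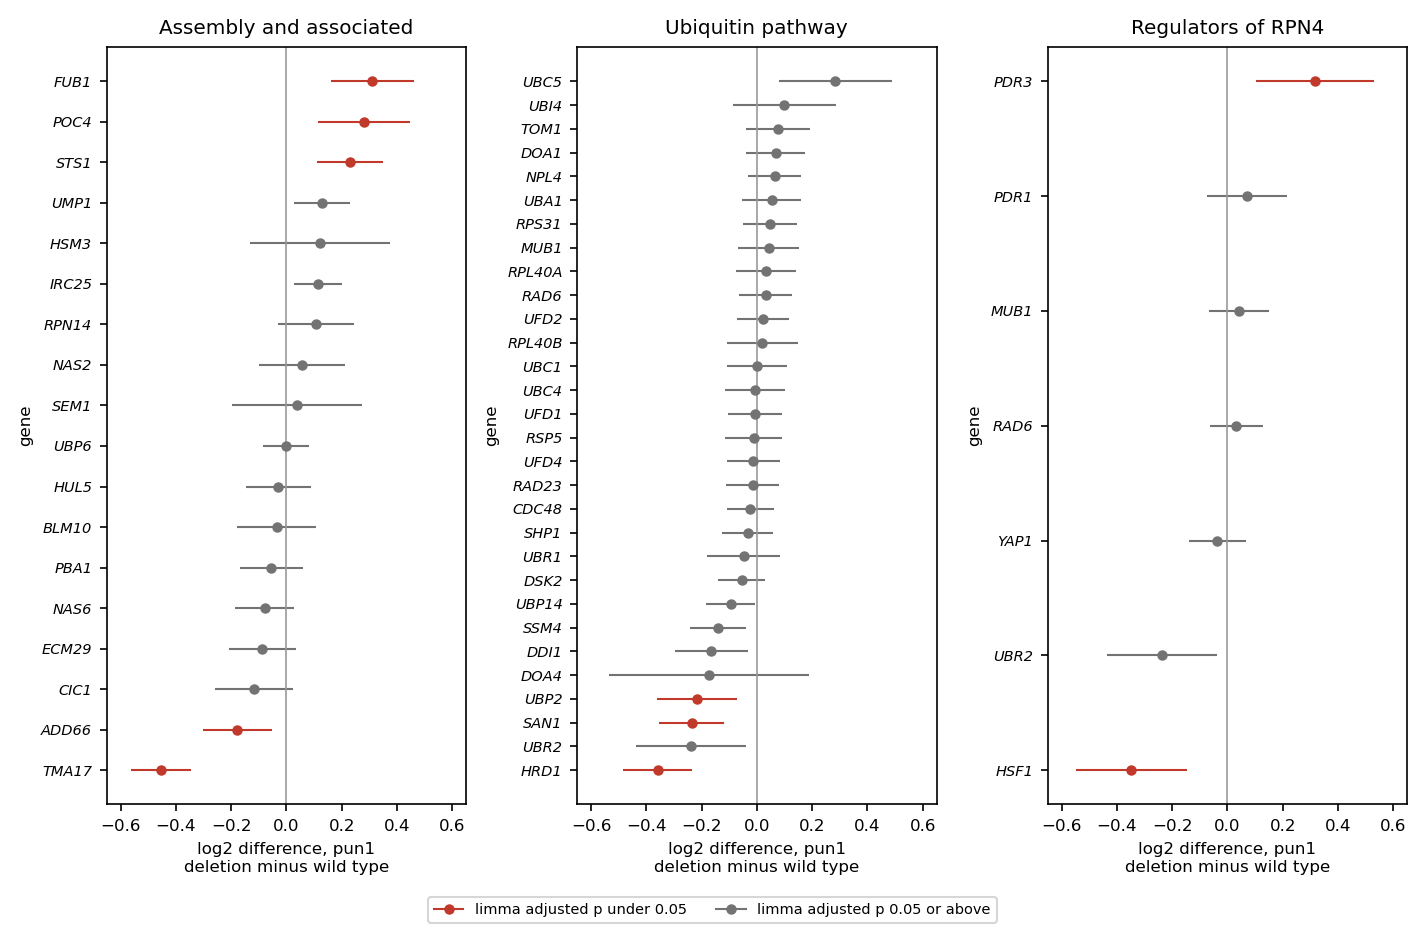
Each point is the limma log2 difference, deletion minus wild type, of a gene with its 95% interval, in panels for 18 assembly and associated genes, 30 ubiquitin pathway genes and 7 regulators of RPN4. Red marks the genes past an adjusted p of 0.05, with TMA17 at -0.45, HRD1 at -0.36 and HSF1 at -0.35 the lowest of their panels.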

How the data were processed

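RNA of 6 cultures was hybridised to 6 one-colour Affymetrix arrays. Per the labels' protocols, poly(A) RNA was selected by kit and target was labelled in a single cycle. The authors deposited log2 probe set values; the submitters' processing notes name GCOS 1.1, GCRMA and limma, without order or further versions, and the log base was read from the range. Of 10928 probe sets, 5498 stood for S. cerevisiae genes through the platform annotation (7244 probe sets with 1 symbol, 1 with several, 3683 with none) and the R64 gene table, used only for names; which genome build the probes were designed on was not stated, so no positions or sequences are printed. Background was the 95th percentile of 1746 Schizosaccharomyces pombe probe sets. Differences, deletion minus wild type, were fitted with limma 3.58.1 in R 4.3.3 over all 5498 probe sets (lmFit, eBayes, two-sided, Benjamini-Hochberg, no covariates). The fit was tested on simulated data with changes larger than those of the subunits and RPN4, so that test does not cover their sizes. Figures were drawn with matplotlib 3.10.9.

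The genes named follow a rule: RPN4 and the highest and lowest difference in each of the core particle, base and lid. It adds the 3 subunits most similar to RPN4 and up to 4 passing genes of each other list. The other members are given briefly. ADD66, UBC5, SSM4, CDC48, RAD23, the ubiquitin genes and the regulators that did not pass fall outside the rule. So do the array values printed for PRE1, PUP3, RPT3 and RPN12. All of these were chosen after their values were seen. SEM1, the group means of PUP2 and the lowest value of RPN3 are outside the rule as well. Members and lists were chosen with earlier results of these data known. Array number limits precision. Between arrays of the same replicate number, deviations from group means correlated at 0.351, 0.213 and 0.112 for numbers 1, 2 and 3. The labels state no shared day. Arrays of different number reached 0.183 (deletion 3 with wild type 2) and 0.161 (deletion 2 with wild type 3), so numbers 2 and 3 are not separated from each other. Alternatives were 6 fits without 1 array, 5 planned settings and 1 added after the data were seen.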

Additional observations from a re-analysis of the deposited data

How the results depend on the processing

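Of the 12 alternatives, 11 called 0 of the 33 genes in limma, with 0 to 4 at an unadjusted p under 0.05; the exception was the fit without wild type replicate 1, which called RPN6 lower (0 to 1 genes over the fits without 1 array). RPN4 reversed when the 3 arrays with a high 25S control were left out (-0.074), a setting chosen after seeing the data. That fit compared deletion replicate 1 alone with wild-type replicates 2 and 3, so its values rest on 1 deletion array. RPN4 ranged from -0.018 to 0.077 over the fits without 1 array and passed in none of them. RPN5 reversed after median centring (-0.026) and without the high 25S arrays (-0.070), ranged from -0.026 to 0.050 without 1 array, and passed in none. Median centring moved the medians of the 32 subunits, the core and the base to -0.047, -0.032 and -0.047. The base was -0.039 without the high 25S arrays and -0.030 to 0.012 without 1 array; the lid stayed below 0 throughout, at -0.088 after median centring and -0.085 without the high 25S arrays. Over the fits without 1 array the 32 subunits ranged from -0.030 to -0.0027 and the core from -0.0030 to 0.0030; after quantile normalization the core was 0.00066 and the base 2.0e-05. Without the high 25S arrays the 32 subunits were at -0.028 and the core at -0.0057, and SAN1, UBP2 and PDR3 differed by -0.26, -0.31 and 0.42. Counts of assembly genes, ubiquitin genes and regulators past the threshold were 2 to 5 of 18, 1 to 5 of 30 and 0 to 2 of 7 without 1 array. The share called over all tested probe sets in those fits ran from 14.4% to 25.9%. Ubiquitin genes past the threshold numbered 5 of 30 after median centring, quantile normalization, the dim-probe filter, the trended robust fit and the replicate block. Over all tested probe sets, 25.7%, 26.6%, 26.7%, 27.8% and 28.4% were called in those fits. Regulators numbered 1 of 7 after either scaling, where PDR3 did not pass in limma (adjusted p = 0.058 and 0.0598). The replicate block changed no call of a subunit or RPN4, with a subunit median of -0.015; outside the ubiquitin and regulator counts it changed no list count. Each member had 1 probe set, so averaging probe sets was not run. The cause of these shifts was not tested; with 3 arrays per group, smaller changes than the intervals allow were not detectable.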
